A study of Mus musculus with 2 samples.

Results

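The insulin-like growth factor (IGF) axis was followed here through 10 genes of the 31253 features counted in newborn mouse tooth germs. They are the ligands Igf1 and Igf2, the receptor Igf1r, the binding proteins Igfbp2, Igfbp3, Igfbp4 and Igfbp5, the proteases Pappa and Pappa2, and the protease inhibitor Stc2. Genes were taken by symbol, and all 10 were present in both libraries. Pappa2 was chosen by its level in mesenchymal cells, which differed between the libraries, so that difference is described here with no test and supports nothing. The germs were those of the first molar of the mandible of newborn C57black/B6 mice, dissociated to single cells and captured on BD Rhapsody, a microwell platform in which each cell's transcripts receive a barcode and a unique molecular identifier (UMI). The control library came from Edarfl/fl mice, in which both Edar alleles are floxed and no Cre was given in the labels. The deletion library came from K14cre;Edarfl/fl mice, which carry the same floxed alleles and a Cre driven by the keratin 14 promoter of epithelium. Edar encodes the ectodysplasin receptor, and its loss in epithelium was the question of the study. There was 1 library per genotype, so no test between genotypes was possible, and every interval below covers counting error only.

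IGF1 and IGF2 are secreted ligands that signal through the receptor tyrosine kinase IGF1R. Most of the ligand outside cells is held by IGF-binding proteins, which keep it from the receptor and carry it through tissue. The metalloproteases PAPP-A and PAPP-A2, encoded by Pappa and Pappa2, cut some of these binding proteins and so free the ligand. PAPP-A is known for cutting IGFBP4, PAPP-A2 for cutting IGFBP3 and IGFBP5, and stanniocalcin 2, encoded by Stc2, inhibits both enzymes.

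The promoter windows of Pappa2, Igf1 and Igfbp5 are shown because these are the protease chosen for its mesenchymal difference, and a ligand and a binding protein that were high in dental follicle-like cells. Each runs from 250 bases before to 50 bases after a transcript start in RefSeq (build GRCm38.p6), 5′ to 3′ on the gene's strand. Windows were found for 9 of the 10 members. Capitals mark matches to the motifs searched on both strands: the AP-1 motif (TGANTCA), the CRE motif (TGACGTCA), the box named TATA, spelled here as TATAAA, the EGR motif (GCGNGGGCG), the CArG box and the NF-kappaB motif.
Pappa2: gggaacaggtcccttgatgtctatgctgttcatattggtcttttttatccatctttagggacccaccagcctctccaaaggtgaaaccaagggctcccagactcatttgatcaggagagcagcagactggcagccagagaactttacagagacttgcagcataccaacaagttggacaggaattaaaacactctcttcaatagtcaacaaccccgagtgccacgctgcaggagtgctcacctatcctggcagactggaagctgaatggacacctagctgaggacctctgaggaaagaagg
Igf1: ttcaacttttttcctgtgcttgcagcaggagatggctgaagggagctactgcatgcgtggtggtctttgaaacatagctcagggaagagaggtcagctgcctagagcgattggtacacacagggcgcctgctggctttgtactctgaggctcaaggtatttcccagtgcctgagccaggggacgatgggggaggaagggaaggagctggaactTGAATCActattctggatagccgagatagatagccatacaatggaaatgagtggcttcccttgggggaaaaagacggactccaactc
Igfbp5: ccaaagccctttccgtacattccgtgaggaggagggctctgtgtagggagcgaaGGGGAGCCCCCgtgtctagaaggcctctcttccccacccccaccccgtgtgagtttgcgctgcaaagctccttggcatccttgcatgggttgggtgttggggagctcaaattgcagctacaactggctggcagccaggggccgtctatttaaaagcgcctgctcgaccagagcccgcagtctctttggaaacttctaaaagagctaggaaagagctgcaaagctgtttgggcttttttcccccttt
The Pappa2 window, chr1:158958126-158958425 on the minus strand, held none of these motifs and had 2 CpG dinucleotides, against a median of 7 over 32851 windows of this length. The Igf1 window, chr10:87860861-87861160 on the plus strand, held an AP-1 match that starts 37 bases before the transcript start, and 7.81% of all windows held one. The Igfbp5 window, chr1:72874816-72875115 on the minus strand, held overlapping NF-kappaB matches 196 and 195 bases before the start, and 8.46% of all windows held one. A match is a description of letters and not a site of binding. In GENCODE M21 on mm10 the Pappa2 gene spans chr1:158711727-158980490 and Igf1 spans chr10:87858265-87937042, so both RefSeq starts lie inside the annotated gene, while the Igfbp5 start lies at the 5′ end of the gene at chr1:72857932-72874884.

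After filtering, 13255 control and 15244 deletion cells were kept, with medians of 4444 and 3329 UMIs per cell, and the deletion library was thus the shallower. Of these, 7760 and 10106 cells were mesenchyme-like and 2271 and 1887 epithelium-like, and all 8 markers of mesenchyme and 7 of 8 of epithelium were detected in at least 25% of the cells so named in each library. Levels are given in CPM, for which the UMIs of a class in a library were summed and scaled to a total of 1000000. The libraries shared 4 barcodes and each held cells of both sexes: cells with Xist and no Y-linked UMI were 17.2% of the control and 30.6% of the deletion library, and the reverse held for 43.2% and 26.1%. Edar itself was at 34.7 CPM in control and 21.1 CPM in deletion epithelium-like cells. The labels do not say which exons are removed, so these counts are no check of the deletion.

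The members differed in the cell classes that held them. Igf1 was a mesenchymal and macrophage transcript, Igf1r was found in every class, Igfbp2 was highest in epithelium, Igfbp3 in endothelium, Igfbp4 and Igfbp5 in mesenchyme, and Pappa2 was low in every named class but mesenchyme. Each of the next paragraphs takes one role in turn.

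**Figure D1:**
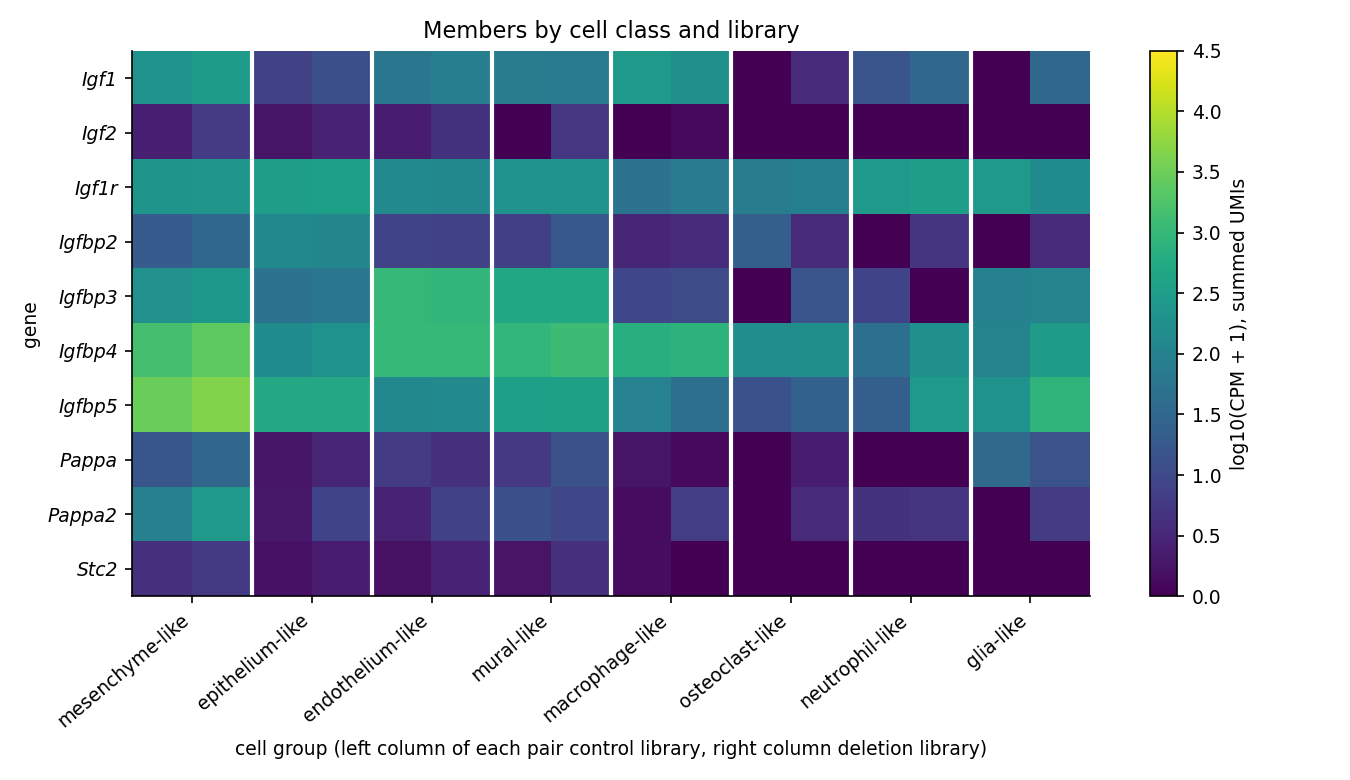
Level of each of the 10 genes, as log10(CPM + 1) of summed UMIs, in the 8 named cell classes; in each pair of columns the left is the control and the right the deletion library. Igf1r is present in all classes, Igfbp3 is highest in endothelium-like cells, at 991 and 898 CPM, and Pappa2 stands out in mesenchyme-like cells, at 90.3 and 268 CPM.

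Igf1, the ligand that mediates much of growth hormone's action, was at 202 CPM (95% Poisson interval 198 to 207) in control and 308 CPM (303 to 314) in deletion mesenchyme-like cells. Macrophage-like cells had 271 CPM in control and 182 CPM in deletion cells, so they stood above mesenchyme in the control and below it in the deletion library. Mural-like cells had 81.0 and 72.8 CPM and endothelium-like cells 57.9 and 82.3 CPM. The mural intervals of the libraries overlapped (66.3 to 97.8 and 56.8 to 91.8), and the endothelial ones did not (51.3 to 65.1 and 73.2 to 92.2). Epithelium-like cells were low, at 6.74 and 11.8 CPM. Within mesenchyme, Igf1 was high in cells like those of the dental follicle, the tissue around the germ that forms cementum, ligament and bone. It was also high in perivascular or fibroblast-like cells. Dental follicle-like cells had 925 and 887 CPM and perivascular or fibroblast-like cells 837 and 816 CPM, whereas odontoblast-like cells, which make dentine, had 3.84 and 5.43 CPM and dental papilla-like cells 12.9 and 19.96 CPM. The follicle-like value pools sub-clusters 8 and 9, with 1119 and 520 control and 1623 and 1413 deletion cells, so it moves with their mix. Igf1 was at 1261 and 1399 CPM in sub-cluster 8. In sub-cluster 9 it was at 264 and 350 CPM, below perivascular or fibroblast-like cells.

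Igf2 was almost absent, at 1.51 CPM (67 UMIs) in control and 4.96 CPM (198 UMIs) in deletion mesenchyme-like cells. Its highest levels were in perivascular or fibroblast-like cells, at 21.6 and 38.6 CPM, and in a small unnamed cluster led by Mmp13 and Sfrp4, at 21.3 and 33.4 CPM. Igf2 is a strongly expressed fetal growth factor, and the neighbouring imprinted RNA H19 reached 793 and 1223 CPM in mesenchyme. The annotated gene Gm49394, on the same strand, covers 62.8% of the exon bases of Igf2 and was counted at 0 UMIs. Reads that fall in both genes may be dropped by the counting, so the low level of Igf2 is uncertain and no absence is read from it.

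Igf1r, the receptor of both ligands, was found in all 8 named classes. Mesenchyme-like cells had 215 CPM in control and 223 CPM in deletion cells, and epithelium-like cells 328 and 340 CPM. The lowest class was macrophage-like, at 51.0 and 66.4 CPM. Among mesenchymal sub-clusters the level ran from 134 to 767 CPM in control and from 138 to 695 CPM in deletion cells, both highest in a sub-cluster of 85 and 50 cells led by Csmd1. The sub-cluster led by Grik1 and Rspo4 had 445 CPM in control and 268 CPM in deletion cells, a log2 ratio of -0.72, which was short of 2-fold. An epithelial sub-cluster led by Odam held the highest epithelial level of those with at least 50 cells in each library, at 573 and 677 CPM.

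Among the binding proteins, Igfbp2 was the epithelial one. It was at 126 CPM (120 to 133) in control and 115 CPM (107 to 123) in deletion epithelium-like cells. The count ratio of 0.832 to 0.995 lies just below 1, but the log2 ratio of -0.13 turned to 0.028 after thinning. Within epithelium Igfbp2 was concentrated in the keratin-rich sub-cluster led by Krt4 and Krt13, at 634 and 521 CPM. The sub-cluster led by Odam followed, at 476 and 329 CPM. Ameloblast-like cells, named for the cells that make enamel, had 61.5 and 76.9 CPM. Enamel knot-like cells, named for the epithelial signalling centre of the cusps, had 25.1 and 13.6 CPM. The latter name rests on 4 markers detected, of which Wnt10b and Edar were among the leading genes. It scored 0.80, with inner enamel epithelium next at 0.65. In mesenchyme Igfbp2 was at 18.8 and 31.3 CPM, highest in perivascular or fibroblast-like cells at 204 and 267 CPM.

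Igfbp3 was highest in endothelium-like cells among the named classes, though mesenchymal sub-cluster 8, given below, stood above them. Endothelium-like cells had 991 CPM (963 to 1020) in control and 898 CPM (867 to 929) in deletion cells, and the mural-like class had 502 and 504 CPM. In mesenchyme it stood at 188 and 254 CPM, and there it was again a follicular gene, with 798 CPM in control and 611 CPM in deletion dental follicle-like cells. By sub-cluster it was at 1116 and 1035 CPM in sub-cluster 8 and at 172 and 165 CPM in sub-cluster 9, whose share of the follicle-like cells differed between the libraries. Odontoblast-like cells had 3.22 and 6.78 CPM.

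Igfbp4, a substrate of PAPP-A, was found across mesenchyme, endothelium, mural cells and macrophages. Mesenchyme-like cells had 1507 CPM (1495 to 1518) in control and 2415 CPM (2399 to 2430) in deletion cells. Endothelium-like cells had 1032 and 1047 CPM, the mural-like class 956 and 1205 CPM, and the macrophage-like class 689 and 799 CPM. Inside mesenchyme its level ran over a wide range. The lowest values there are not read as expression, because neutrophil-like cells of the deletion library had at least 50 CPM of Igfbp4. Odontoblast-like cells with Dspp and Dmp1, genes of the dentine matrix, had 44.1 and 61.6 CPM, the other odontoblast-like sub-cluster 271 and 327 CPM, dental papilla-like cells 1014 and 956 CPM, and the unnamed sub-clusters led by Grik1 and by Gria1 4682 and 5115 CPM and 6853 and 6384 CPM.

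Igfbp5, a substrate of PAPP-A2, was high in dental follicle-like cells, chiefly in sub-cluster 8. It was at 16578 CPM in control and 14312 CPM in deletion dental follicle-like cells, again a pool of sub-clusters 8 and 9, against 50.8 and 83.6 CPM in odontoblast-like and 22.5 and 44.6 CPM in dental papilla-like cells. The follicle-like sub-cluster 8, led by Moxd1, Igfbp5 and Spon1, held 22794 and 23124 CPM, and a cycling sub-cluster led by Prc1 held 14514 and 15838 CPM. Epithelium-like cells had 520 and 511 CPM, with 1351 and 1239 CPM in the sub-cluster led by Aldh1a7. RNA free in the suspension may bear on the low values of such an abundant transcript. Neutrophil-like cells, which should lack Igfbp5, had 6 UMIs (21.6 CPM) in control and 68 UMIs (268 CPM) in deletion cells, with a UMI in 4.38% and 12.6% of them at medians of 1649 and 1326 UMIs. The share with any UMI was 37.1% and 45.3% of mesenchyme-like cells. The 68 UMIs lay in only 12.6% of the deletion neutrophil-like cells, so 268 CPM is no measure of an even background. Their source was not tested. Levels of Igfbp5 at or below those of neutrophil-like cells of the same library are not read here as expression. In the deletion library this takes in the papilla-like, odontoblast-like, endothelium-like and macrophage-like cells.

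**Figure D2:**
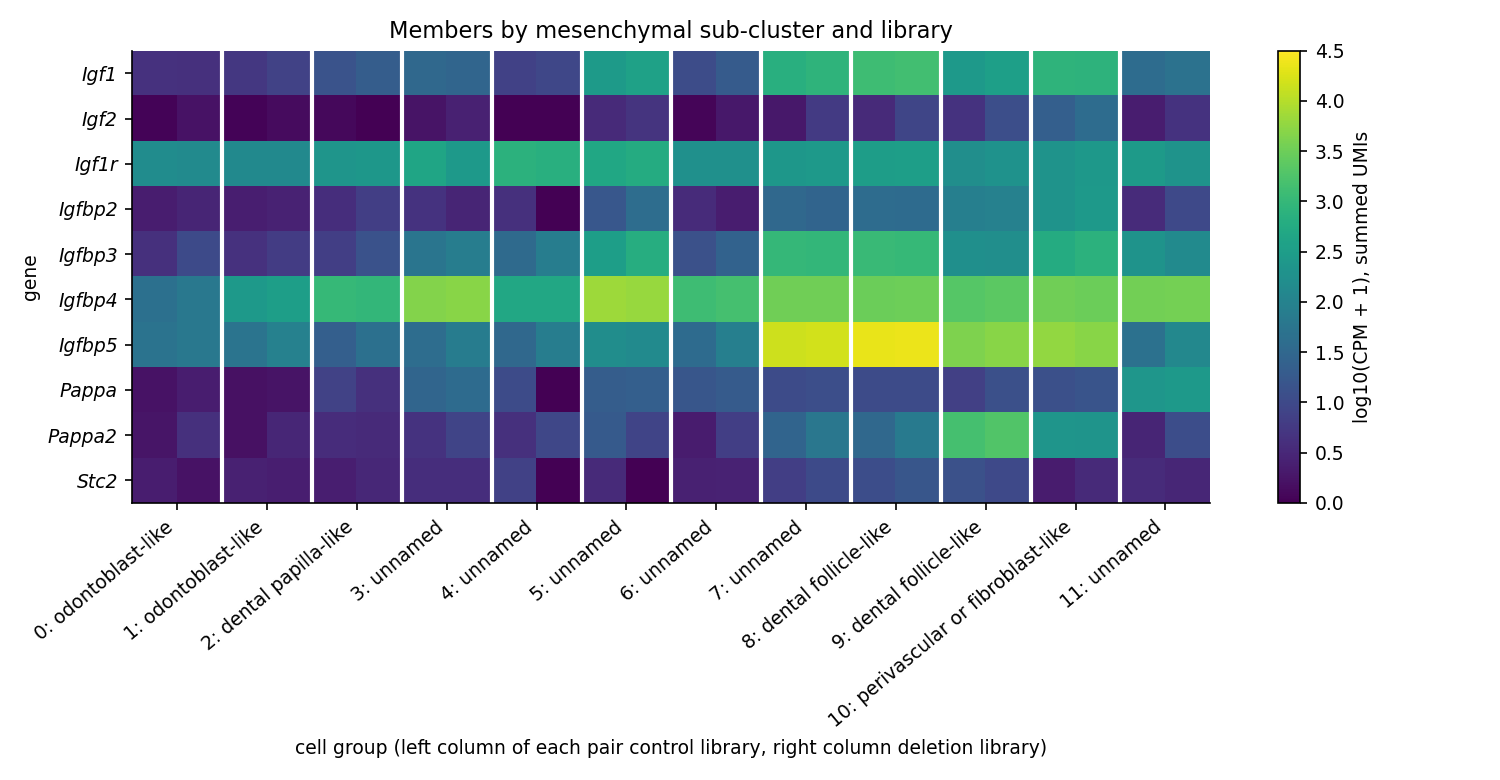
Level of each member, as log10(CPM + 1) of summed UMIs, in the 12 mesenchymal sub-clusters; in each pair of columns the left is the control and the right the deletion library. Igf1, Igfbp3 and Igfbp5 are high in sub-clusters 7, 8 and 10, Pappa2 is highest in sub-cluster 9, at 1491 and 1922 CPM, and Pappa in sub-cluster 11, at 233 and 261 CPM.

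Pappa and Pappa2, which encode related proteases, were highest in different mesenchymal sub-clusters. Pappa was at 15.3 CPM in control and 29.1 CPM in deletion mesenchyme-like cells, and it was concentrated in sub-cluster 11, led by Gabrg3, Pappa and Lypd1, at 233 CPM in control and 261 CPM in deletion cells. Pappa2 was at 1.91 and 10.5 CPM there. Pappa2 in turn was at 1491 CPM (1441 to 1542) in control and 1922 CPM (1884 to 1960) in deletion cells of the dental follicle-like sub-cluster 9, led by Pappa2, Cyp26b1, Tnn and Chodl, where Pappa was at 6.14 and 11.4 CPM. The genes of the axis were left out of the clustering. Across 28 clusters and sub-clusters the profiles of Pappa and Pappa2 had a Pearson r of 0.26, and those of Igf1 and Pappa2 one of 0.72. These points share libraries and depth, and no test is given.

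Stc2 was low everywhere. Mesenchyme-like cells had 3.22 CPM (143 UMIs) in control and 4.73 CPM (189 UMIs) in deletion cells. Dental follicle-like cells had 11.2 and 11.9 CPM with overlapping intervals (8.84 to 14.1 and 9.91 to 14.2). Odontoblast-like cells had 1.45 and 1.13 CPM.

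Outside mesenchyme Pappa2 was at a trace level. Epithelium-like cells had 10 UMIs (0.963 CPM) in control and 48 UMIs (6.996 CPM) in deletion cells. Of the 48 UMIs, 52.1% came from an unnamed epithelial sub-cluster of 37 control and 60 deletion cells led by Bglap, Col3a1 and Lum, which are mesenchymal genes. Endothelium-like cells had 1.86 and 6.37 CPM, the mural-like class 11.3 and 8.20 CPM, and the macrophage-like class 0.399 and 5.46 CPM. Neutrophil-like cells had 1 UMI in each library, with a UMI in 0.730% and 0.741% of cells. The unnamed cluster led by Mmp13 and Sfrp4 was the highest outside the named mesenchyme, at 70.8 and 133 CPM.

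In mesenchyme-like cells as a whole, Pappa2 was at 90.3 CPM (87.5 to 93.1) in the control library, from 4014 UMIs, and at 268 CPM (262 to 273) in the deletion library, from 10684 UMIs. The log2 ratio of CPM + 5 was 1.52, and the 95% interval of the count ratio ran from 2.86 to 3.07. This is the difference for which the gene was chosen. A gene was called past the rule of size where it had at least 50 CPM in 1 library, differed at least 2-fold in CPM + 5 and had a count ratio interval that excluded 1. By that rule 24 of 3472 genes, 0.691%, were called in mesenchyme-like cells, 13 of them higher in the deletion library (0.374%). Pappa2 was the only member of the axis among them. At 1.5-fold in place of 2-fold, 6.83% of genes were called, and Igf1 and Igfbp4 were called beside Pappa2. The other 5 members at 50 CPM or more had log2 ratios of 0.60 for Igf1, 0.05 for Igf1r, 0.42 for Igfbp3, 0.68 for Igfbp4 and 0.53 for Igfbp5. Igf1r turned to -0.061 with median-of-ratios size factors and to -0.023 after thinning. Thinning also brought Igf1 to 0.33 and Igfbp4 to 0.47, both short of 1.5-fold, Igfbp3 to 0.12 and Igfbp5 to 0.28. In cells low in immediate early genes Igfbp5 turned to -0.32, and Igf1 and Igfbp3 were both at 0.13. The median over the 6 members was 0.56, beside 0.09 over all 3472 genes. Those 6 include Pappa2, which was chosen for this difference, so that median supports nothing.

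The mesenchymal difference in Pappa2 went with the number of cells in 1 sub-cluster more than with the level within it. Sub-cluster 9 made up 6.70% (6.15 to 7.28) of control and 13.98% (13.3 to 14.7) of deletion mesenchyme-like cells, being 520 of 7760 and 1413 of 10106, and it held 84.7% and 91.3% of their Pappa2 UMIs. Within it a Pappa2 UMI was seen in 86.0% and 90.0% of cells, or in 75.6% of 517 and 84.7% of 1329 cells thinned to 1900 UMIs, shallower cells being left out. The log2 ratio within sub-cluster 9 was 0.37, with a count ratio of 1.24 to 1.34, short of 2-fold. Per thinned cell the median was 2 UMIs in control and 3 in deletion cells, with middle ranges of 1 to 4 and 1 to 6. None of the 10 leading genes of sub-cluster 9 was past the rule of size within it, where 0.802% of genes were called. The other follicle-like sub-cluster had Pappa2 at 32.3 and 67.7 CPM, perivascular or fibroblast-like cells at 222 and 211 CPM, and dental papilla-like cells at 2.72 and 2.50 CPM. With 1 library per genotype, a difference in the share of a sub-cluster cannot be told apart from a difference between these 2 preparations of cells.

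**Figure D3:**
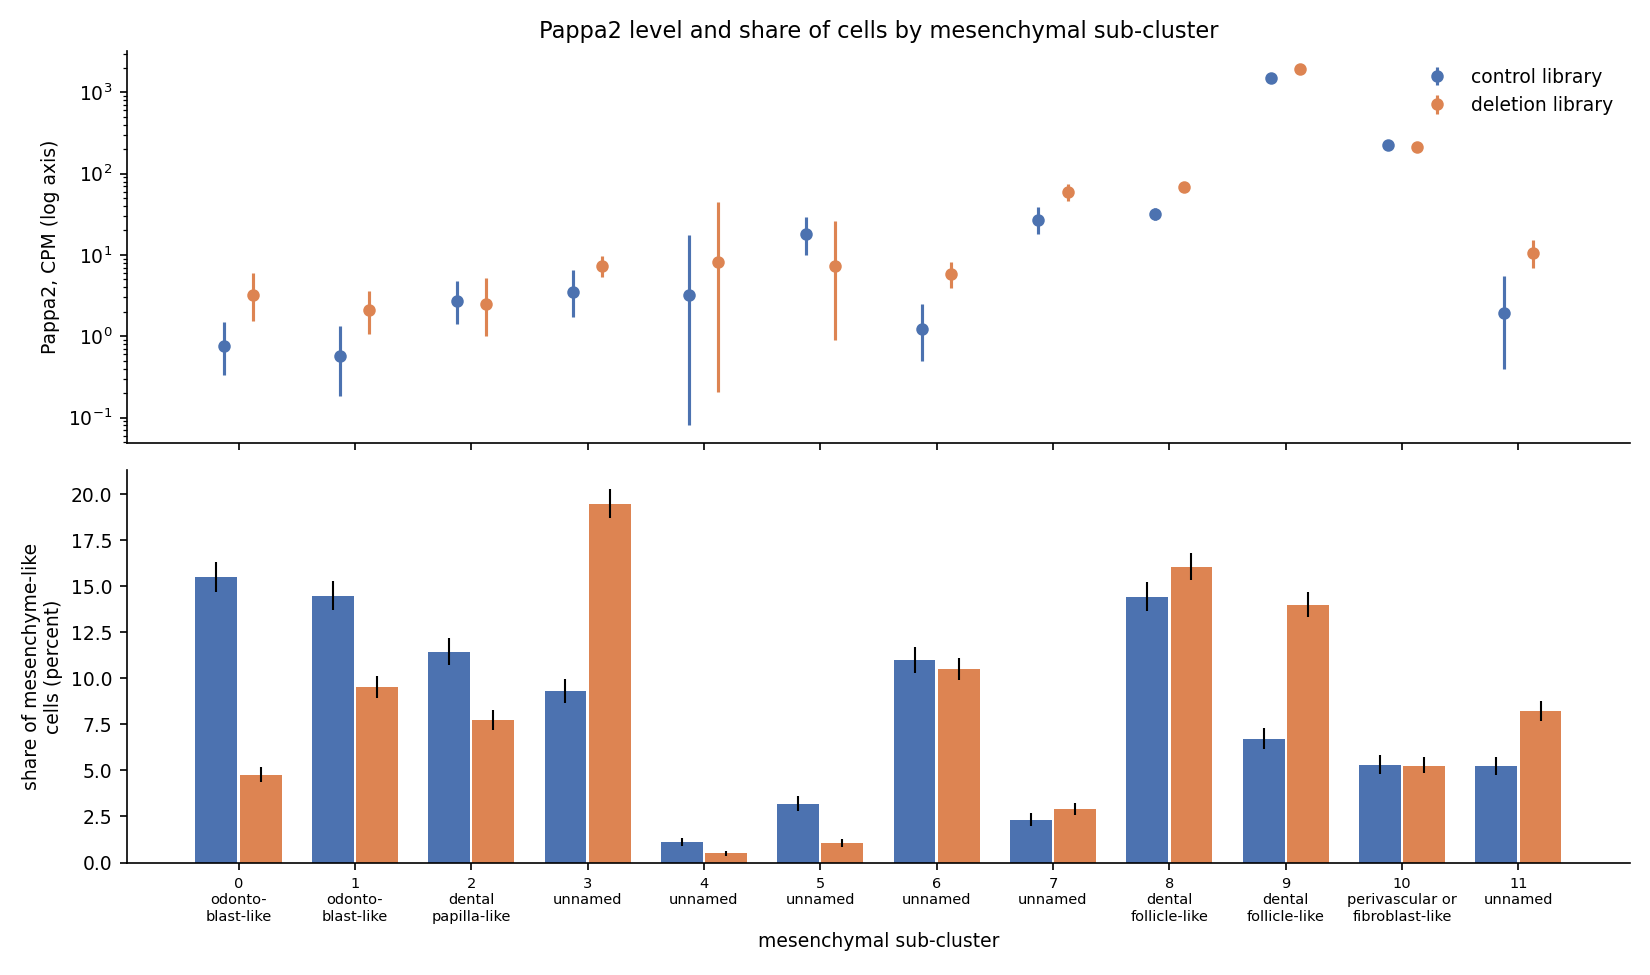
Upper panel, Pappa2 level in CPM on a log axis, with exact 95% Poisson intervals, in the 12 mesenchymal sub-clusters of the control and the deletion library; lower panel, the share of mesenchyme-like cells in each sub-cluster, in percent, with exact 95% binomial intervals. Sub-cluster 9 has the highest Pappa2, at 1491 and 1922 CPM, and takes 6.70% of control and 13.98% of deletion cells.

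The split between make-up and level was computed for each member by giving the control sub-clusters the deletion library's share of UMIs, and the reverse. For Pappa2, control levels with the deletion make-up gave 205 CPM, a log2 ratio of 1.14, and deletion levels with the control make-up gave 118 CPM, a log2 ratio of 0.37. For Igfbp4 the pair was 0.58 and 0.07, for Igfbp5 0.47 and 0.04, for Igfbp3 0.42 and 0.05, and for Igf1 0.42 and 0.17. Igf1r had 0.20 and -0.05. In all 6, the value with the deletion make-up was the higher of the pair. Over all genes, 1 of 3257 at 50 CPM or more (0.0307%) differed 2-fold at deletion levels with the control make-up. With pooled levels 24 of 3472 were past the rule of size, so the drop was not particular to the members. Deletion mesenchyme held fewer odontoblast-like cells of sub-cluster 0, at 15.5% in control and 4.78% in deletion cells, and more of sub-cluster 3, at 9.32% and 19.5%, beside the difference in sub-cluster 9.

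**Figure D4:**
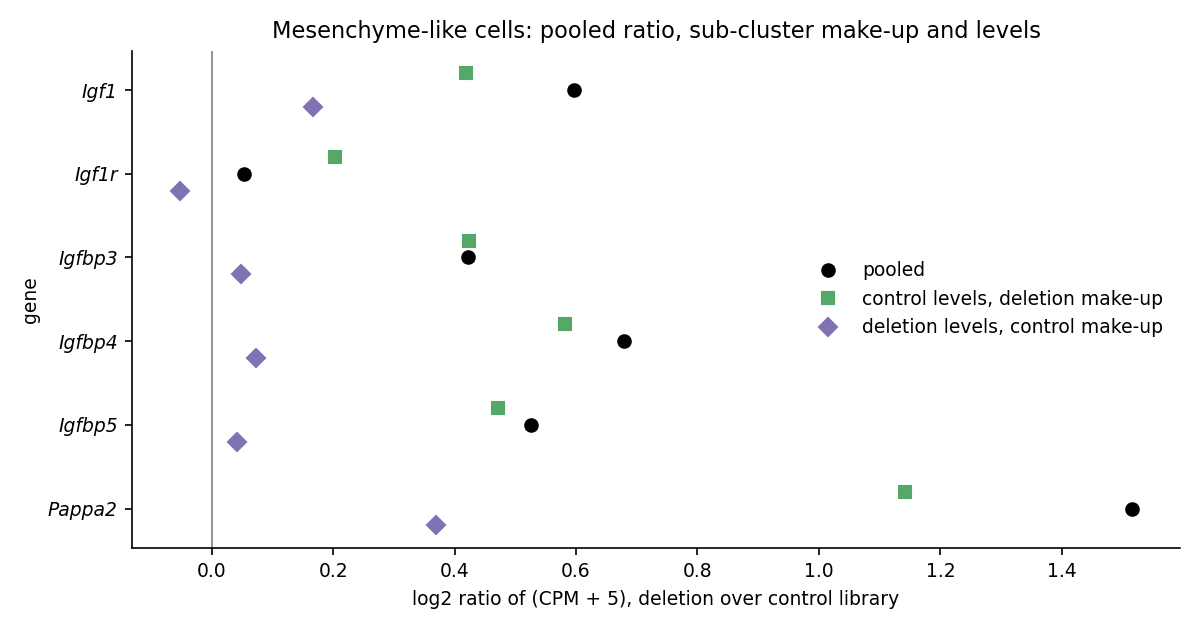
Log2 ratio of CPM + 5, deletion over control library, in mesenchyme-like cells for the 6 members with at least 50 CPM: pooled over all cells, with control levels and the deletion make-up of sub-clusters, and with deletion levels and the control make-up. For Pappa2 the 3 values are 1.52, 1.14 and 0.37.

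Immediate early genes also differed between the libraries, well beyond sub-cluster 9. These are the 23 genes, among them Fos, Jun and Egr1, that are switched on within minutes by stimuli including tissue dissociation. Their summed level was 10279 CPM in control and 14242 CPM in deletion mesenchyme-like cells, with 22 of 23 higher in the deletion library, and in epithelium-like cells it was 3093 and 4922 CPM. In sub-cluster 9 it was 16372 and 24015 CPM, with all 23 higher, and in sub-cluster 8 it was 14796 and 21340 CPM. The summed level was higher in deletion cells of every mesenchymal sub-cluster. Endothelium-like cells had 9670 and 12423 CPM and mural-like cells 9987 and 15014 CPM. Glia-like and neutrophil-like cells were lower in the deletion library, at 17835 and 14206 CPM and at 13711 and 11267 CPM. Mesenchyme-like cells of both libraries were ordered together by the share of their UMIs in this list and cut into 4 equal bins. In the lowest bin Pappa2 was at 56.6 CPM in control and 38.4 CPM in deletion cells, and in bin 2 at 37.6 and 48.0 CPM. In bin 3 it was at 72.4 and 180 CPM, and in the highest bin at 292 and 665 CPM. The deletion library was thus more than 2-fold higher in the 2 upper bins, higher by less in bin 2 and lower in the lowest bin.

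Over the 2 lower bins together, 4658 control and 4275 deletion cells, the log2 ratio of Pappa2 was -0.09. No member was past the rule of size in these cells, beside 0.754% of all genes. Sub-cluster 9 took 4.32% (3.75 to 4.94) of control and 3.93% (3.37 to 4.56) of deletion cells there, and 10.3% (9.24 to 11.4) and 21.4% (20.3 to 22.4) of the cells of the upper bins. Within sub-cluster 9, Pappa2 was at 1116 and 924 CPM in the cells of the lower bins and at 1714 and 2037 CPM in those of the upper bins. The part of the immediate early genes in the Pappa2 difference was not tested, since the list also marks some sub-clusters more than others in each library.

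**Figure D5:**
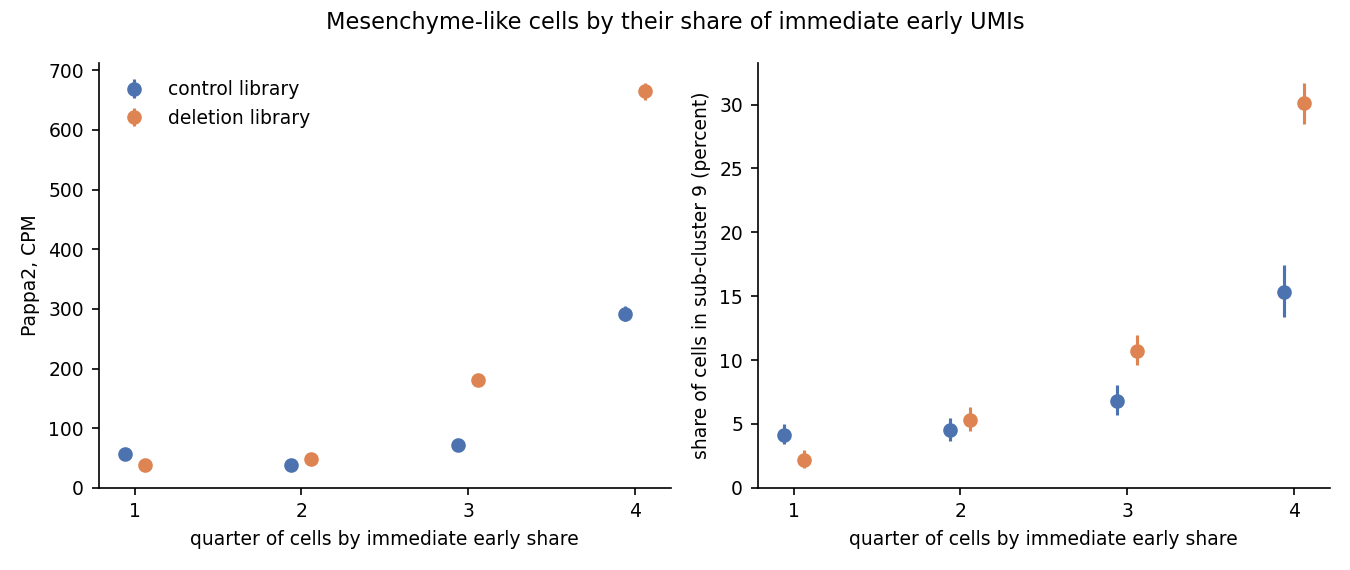
Mesenchyme-like cells of both libraries in 4 equal bins by the share of their UMIs in 23 immediate early genes. Left, Pappa2 in CPM with exact 95% Poisson intervals; right, percent of cells in sub-cluster 9 with exact 95% binomial intervals. Pappa2 is at 56.6 and 38.4 CPM in the lowest bin and at 292 and 665 CPM in the highest, for control and deletion cells.

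The sexes of the cells were another difference between the libraries. In mesenchyme-like cells with Y-linked UMIs and no Xist, Pappa2 was at 61.2 CPM in control and 252 CPM in deletion cells. In those with Xist and no Y-linked UMI it was at 135 and 259 CPM. Both kinds of cell were thus higher in the deletion library, by log2 ratios of 1.96 and 0.91, and the 2 kinds differed more in the control than in the deletion library. Igf1 in the Xist cells was at 158 and 359 CPM, a log2 ratio of 1.16. In the Y-linked cells it was at 193 and 275 CPM, a log2 ratio of 0.51. Igfbp4 had the smaller log2 ratio in the Xist cells, 0.18 (1627 and 1842 CPM), and 0.98 in the Y-linked cells (1375 and 2712 CPM). The part of sex in these differences was not tested.

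In epithelium-like cells, where Edar was to be deleted, no member was past the rule of size, against 9 of 3548 genes, 0.254%, in the whole class. The 5 members at 50 CPM or more had a median log2 ratio of 0.05, beside -0.06 over all genes, with 3 above and 2 below 0, or 4 above and 1 below with median-of-ratios size factors. Igfbp2 had a log2 ratio of -0.13 and a count ratio interval just below 1, given above. Its log2 ratio was -0.081 with median-of-ratios size factors and turned to 0.028 after thinning, so no direction is read from it. Igf1r, Igfbp3 and Igfbp5 had count ratio intervals that included 1 (0.982 to 1.09, 0.979 to 1.27 and 0.942 to 1.03). Igfbp4 was at 153 CPM in control and 195 CPM in deletion cells, a count ratio of 1.19 to 1.37. Split by sex, this rise was not seen. Cells with Y-linked UMIs and no Xist had 146 and 124 CPM, a log2 ratio of -0.23. Those with Xist and no Y-linked UMI had 228 and 232 CPM, a log2 ratio of 0.028. No direction is read from Igfbp4 either. No difference as large as 2-fold was seen at this depth for any of the 5. Of the remaining classes, macrophage-like cells had 1 member past the rule, Igfbp5, at 98.3 CPM (493 UMIs) in control and 43.1 CPM (142 UMIs) in deletion cells, where 0.175% of genes were called. The control value lies above and the deletion value below that of neutrophil-like cells of the same library. Neutrophil-like and glia-like cells, with 137 and 135 and with 38 and 108 cells, each had Igfbp4 and Igfbp5 past the rule, at backgrounds of 9.87% and 11.5% of genes called.

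The wider pathway was followed through 37 other genes of IGF and insulin signalling. In mesenchyme-like cells 20 of them reached 50 CPM and none was past the rule of size, beside 0.691% of all genes. Of the 20, 19 were above and 1 below 0, with a median log2 ratio of 0.31 beside 0.09 over all genes. With median-of-ratios size factors the split was 15 above and 5 below, with a median of 0.20 beside -0.024 over all genes. Those at the highest level were H19, at 793 and 1223 CPM, Igfbp7, a binding protein of low affinity for IGF, at 299 and 404 CPM, and Grb10, an adaptor that dampens signalling of the receptor, at 277 and 378 CPM. In epithelium-like cells 14 reached 50 CPM and none was past the rule, beside 0.254% of all genes. The split was 6 above and 8 below 0 with either scaling, and the median was -0.085, or -0.034 with size factors, beside -0.06 over all genes. Igfbpl1, a secreted relative of the binding proteins, was at 842 and 791 CPM, H19 at 577 and 792 CPM, and Pik3r1, the regulatory subunit of the lipid kinase downstream of the receptor, at 194 and 195 CPM.

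The genes whose profile was most like each member's were taken over 28 clusters and sub-clusters with at least 50 cells in each library, from the mean of both libraries. For Pappa2 they were Itgbl1 (Pearson r 0.96), C1qtnf3 (0.95) and Angptl1 (0.93). For Igf1 they were C1ra, Ogn and Lpl (0.87 to 0.88), and for Igfbp4 Pros1, Cxcl12 and Pax9 (0.90 to 0.91). Igfbp5 was most like Tnmd, Bmp3 and Dpep1 (0.84 to 0.86), Igfbp3 most like Lamb2, Tgfb1i1 and Ece1 (0.86 to 0.88), and Igfbp2 most like Lgi2, Pitx1 and Cdon (0.86 to 0.89). Igf1r was most like Scai, Phf21a and Pnisr (0.86 to 0.87), and Pappa most like Ntrk3, Lypd1 and Col8a2 (0.83 to 0.87). Igf2 and Stc2 were under the level set for this comparison. Among the members, Igf1 and Igfbp4 were most alike (0.81), and Igf1r was the least like Igf1 (-0.17).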

How the data were processed

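The deposited values are raw UMI counts per gene and barcode in 2 libraries, 1 per genotype. The submitters' processing notes name STARsolo and mm10, with versions not given in the sources used here. Total counts were 73375441 UMIs over 13990 control barcodes and 62158879 over 16029 deletion barcodes. Cells with at least 500 genes and at most 20% mitochondrial UMIs were kept, and Scrublet removed 176 and 243 doublets (1.31% and 1.57%).

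With scanpy 1.11.5, 2000 variable genes (members, the 37 pathway genes, Xist, Tsix, Y-linked genes and those of ribosomal proteins, mitochondria and haemoglobin left out), 30 components, 15 neighbours and Leiden resolution 1 gave clusters, and resolution 0.6 the sub-clusters. A name needed at least 3 of its markers in 25% of cells and a score lead of 0.1. Short of that lead, it needed more markers among the leading genes than its rivals. It was withdrawn where the leading genes held more markers of another name, as in clusters 8 and 18, which scored as mesenchyme. Sub-clusters with no marker of the name among their leading genes lost it too, as did shallow clusters of that kind. This naming rule was chosen after the data were seen, and rebuilt names may differ from the study's. UMIs were summed per class and library. Poisson, Clopper-Pearson and conditional binomial intervals are at 95%. The rule of size was checked on simulated data. Named genes are all members, pathway genes past the rule or among the 3 highest in mesenchyme or epithelium, leading genes of clusters, and the 3 profiles most like each member of at least 50 CPM.

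The members and lists were chosen with earlier results of these data known. Nothing says that a library holds separate animals as replicates.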

Additional observations from a re-analysis of the deposited data

Results flagged for a closer look

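The 10 members were compared between the sexes of cells in mesenchyme-like cells, epithelium-like cells and sub-cluster 9. Cells with Y-linked UMIs and cells with Xist UMIs moved in opposite directions beyond counting error in 4 cases. The share of all genes that did so was not computed. None of these differences between the sexes was tested, since each rests on 1 library per genotype. The control Xist cells of sub-cluster 9 numbered 99. Within sub-cluster 9, the log2 ratio of Pappa2, deletion over control, was 0.63 in Y-linked cells (1231 and 1909 CPM) and -0.14 in Xist cells (2110 and 1921 CPM). In the same sub-cluster Igfbp4 had 0.27 and -0.15, and Igfbp5 had -0.060 and 0.63. In epithelium-like cells Igfbp5 had -0.35 in Y-linked and 0.32 in Xist cells.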

How the results depend on the processing

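No paired analysis was possible because each genotype has 1 library and the labels share only the number of that replicate. The mesenchymal log2 ratio of Pappa2, 1.52, lay within its counting interval under 10 of 18 alternatives. Of these, the setting without a minimum level could not change a ratio, and leaving out the 4 shared barcodes could hardly do so. The ratio was 1.40 with median-of-ratios size factors, 1.31 after thinning and 1.84 at Leiden resolution 2. It was 1.96 in cells with Y-linked UMIs, 0.91 in cells with Xist UMIs, 0.37 with control shares and 0.34 with equal shares of sub-clusters. In cells low in immediate early genes it turned to -0.090. The count of members past the rule of size in mesenchyme, 1, was 0 in those low cells, where 0.754% of genes were called. It was also 0 with control or equal sub-cluster shares, where 0.0307% and 0.0277% of genes were called. At 1.5-fold it was 3 (Igf1, Igfbp4 and Pappa2), where 237 of 3472 genes, 6.83%, were called. In Xist cells it stayed 1, but the gene was Igf1. In epithelium the count, 0, was 1 without a minimum level, which was Pappa2. The cause of each change was not tested. Size factors shifted the mesenchymal scale by 0.12 on the log2 scale. Cells high in immediate early genes, and clusters 8 and 18 added to mesenchyme, were alternatives chosen after seeing the data.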
